A study of Mus musculus with 5 samples.

Results

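The transcripts described here are those of the interleukin-1 (IL-1) family, its ligands and receptors, in cell cultures that the labels call endothelial and derived from mouse aorta. Members were all probe sets with a single gene symbol that named Il1a, Il1b, Il1rn, Il18, Il33, Il1r1, Il1rl1 or Il1rap. This gave 14 probe sets of 7 genes, out of 34958 such probe sets of 18194 genes. Il1rl1, which encodes the IL-33 receptor chain ST2, had no probe set under its symbol and was not analysed here. The samples were 2 arrays titled TNF-LTBR and 3 arrays titled control, all at 24 h and of C57BL/6J background. Cells of both groups were kept in serum-rich medium with heparin and endothelial growth supplement. The treatment text is shared by all 5 arrays and names PBS only, so only the titles set the TNF-LTBR group apart, and neither agonist nor dose behind that name is given in the sources used here. TNF is an inflammatory cytokine and LTBR is the lymphotoxin beta receptor. The comparison asked how transcripts differed between cells titled TNF-LTBR and cells titled control. Nothing in the labels says that the arrays came from separate cultures or animals. The p-values thus rest on the spread between these arrays, which may be technical. Those of limma also draw on the spread of other probe sets of similar intensity.

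IL-1 family ligands are signals of infection and tissue damage. IL-1 alpha and IL-1 beta bind the receptor encoded by Il1r1, which then pairs with the accessory protein encoded by Il1rap, and the intracellular domains of the pair recruit MyD88 and IRAK kinases to activate NF-kB. The antagonist encoded by Il1rn occupies the same receptor without recruiting the accessory protein. IL-33 uses ST2 with the same accessory protein, and IL-18 uses receptor chains of its own. In the vessel wall, IL-1 makes endothelial and mesenchymal cells produce adhesion molecules, chemokines and IL-6. IL-33 is stored in the nuclei of the cells that make it.

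The RefSeq gene order places these genes in clusters. Il1a and Il1b were neighbouring protein-coding genes on chromosome 2, and Il1rn stood elsewhere on that chromosome beside the genes of the IL-36 group and Il1f10. Il1r1 and Il1rl1 stood on chromosome 1 among Il1r2, Il1rl2, Il18r1 and Il18rap. The 250 bases before the start are shown for Il1b, because its groups did not overlap, for its neighbour Il1a, and for Il33 and Il1rn, whose signal varied most between arrays (RefSeq, GRCm38.p6, read 5′ to 3′ along the gene). Capitals mark TATAAA, the AP-1 motif TGANTCA and the NF-kB motif GGGNNNNNCC, each searched on both strands.
Il1b promoter, chr2:129371140-129371389, - strand: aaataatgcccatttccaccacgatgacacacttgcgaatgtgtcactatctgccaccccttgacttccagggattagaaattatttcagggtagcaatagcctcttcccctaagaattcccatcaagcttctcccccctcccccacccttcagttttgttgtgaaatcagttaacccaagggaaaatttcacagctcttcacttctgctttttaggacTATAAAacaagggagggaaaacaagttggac
Il1a promoter, chr2:129309973-129310222, - strand: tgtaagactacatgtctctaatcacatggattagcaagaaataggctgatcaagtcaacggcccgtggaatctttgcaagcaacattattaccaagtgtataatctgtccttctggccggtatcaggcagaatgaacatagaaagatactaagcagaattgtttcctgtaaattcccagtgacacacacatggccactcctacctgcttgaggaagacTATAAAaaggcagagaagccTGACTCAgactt
Il33 first start promoter, chr19:29924863-29925112, + strand: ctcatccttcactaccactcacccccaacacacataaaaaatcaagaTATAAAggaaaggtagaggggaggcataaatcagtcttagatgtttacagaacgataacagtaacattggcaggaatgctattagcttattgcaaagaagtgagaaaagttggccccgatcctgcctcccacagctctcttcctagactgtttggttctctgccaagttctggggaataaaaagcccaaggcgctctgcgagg
Il33 second start promoter, chr19:29945540-29945789, + strand: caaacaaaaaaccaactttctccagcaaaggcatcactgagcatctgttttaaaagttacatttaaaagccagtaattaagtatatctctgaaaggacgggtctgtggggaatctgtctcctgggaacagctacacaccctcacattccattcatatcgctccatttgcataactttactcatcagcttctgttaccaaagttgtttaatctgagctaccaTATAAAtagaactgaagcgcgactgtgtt
Il1rn first start promoter, chr2:24336610-24336859, + strand: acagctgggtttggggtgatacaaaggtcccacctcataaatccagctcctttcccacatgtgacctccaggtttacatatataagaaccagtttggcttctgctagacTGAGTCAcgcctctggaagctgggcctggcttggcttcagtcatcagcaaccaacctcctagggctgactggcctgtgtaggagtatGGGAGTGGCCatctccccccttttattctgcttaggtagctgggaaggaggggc
Il1rn other start promoter, chr2:24345121-24345370, + strand: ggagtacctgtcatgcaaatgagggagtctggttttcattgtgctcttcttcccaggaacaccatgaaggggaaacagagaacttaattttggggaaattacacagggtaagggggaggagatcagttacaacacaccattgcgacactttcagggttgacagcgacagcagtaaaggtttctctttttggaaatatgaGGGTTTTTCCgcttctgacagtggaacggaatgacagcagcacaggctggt

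Il1b and Il1a held TATAAA 31 and 32 bases before the start, and the second Il33 start held it 29 bases before. The Il1b, Il1a and Il33 windows held no GGGNNNNNCC, and the Il1rn starts shown held 1 match each. Another Il1rn start, whose window at chr2:24345041-24345290 overlaps the last one shown and is not printed, held no match of the motifs. Among the member windows not shown, Il1rap held 6 matches of GGGNNNNNCC, some of them overlapping, 1 of the Il1r1 starts held 1, and Il18 and Il1rl1 held none. Of 32851 promoters, 45.8% held GGGNNNNNCC, 12.4% held TATAAA and 6.75% held TGANTCA. In the windows shown, no match of one motif overlapped a match of another. A match describes letters only.

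The arrays did not sort by title. Over 11869 genes of mean intensity at least 100, TNF-LTBR array 1 correlated best with control array 2 (Pearson 0.975) and TNF-LTBR array 2 with control array 3 (0.978), while the TNF-LTBR arrays correlated with each other at 0.906. These values describe arrays over genes that share a scale and are not independent. Endothelial markers were mostly weak, and 7 of 12 reached a mean intensity of 100. By mean intensity Kdr was the brightest, at 255.1 to 336.9 in TNF-LTBR and 258 to 364.2 in control cells. Vwf, which encodes von Willebrand factor, was the dimmest, at 2.9 to 5.8 in TNF-LTBR and 2.3 to 7.2 in control cells. Both were named after their values were seen. All 7 fibroblast markers reached a mean intensity of 100, as did 5 of 8 smooth muscle markers and 9 of 11 macrophage markers. In RNA from whole cultures, fewer cells of a type and less RNA per cell cannot be told apart.

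Among the members, Il1b was the gene whose groups stood apart, and its difference was small. Il33, Il1r1, Il1rap and Il1rn differed more between arrays of one title than between titles, and Il18 was nearly level on all arrays. Intensities were compared as log2(intensity + 16), and differences are TNF-LTBR minus control on that scale. None of the 14 probe sets passed limma at an adjusted p of 0.05. Over all 34958 probe sets, 0% passed (smallest adjusted p 1), with 985 at an unadjusted p under 0.05, none of them a member. On the brightest probe set, 4 of 7 genes were higher and 3 lower on average, with a median of 0.07 against 0.01 over all genes. The TNF-LTBR arrays were both above every control for 1 of 7 genes, where 8.6% of all genes were, and both below every control for 0 of 7, where 6.38% were. With 7 genes, a count of 1 is close to that background.

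**Figure D1:**
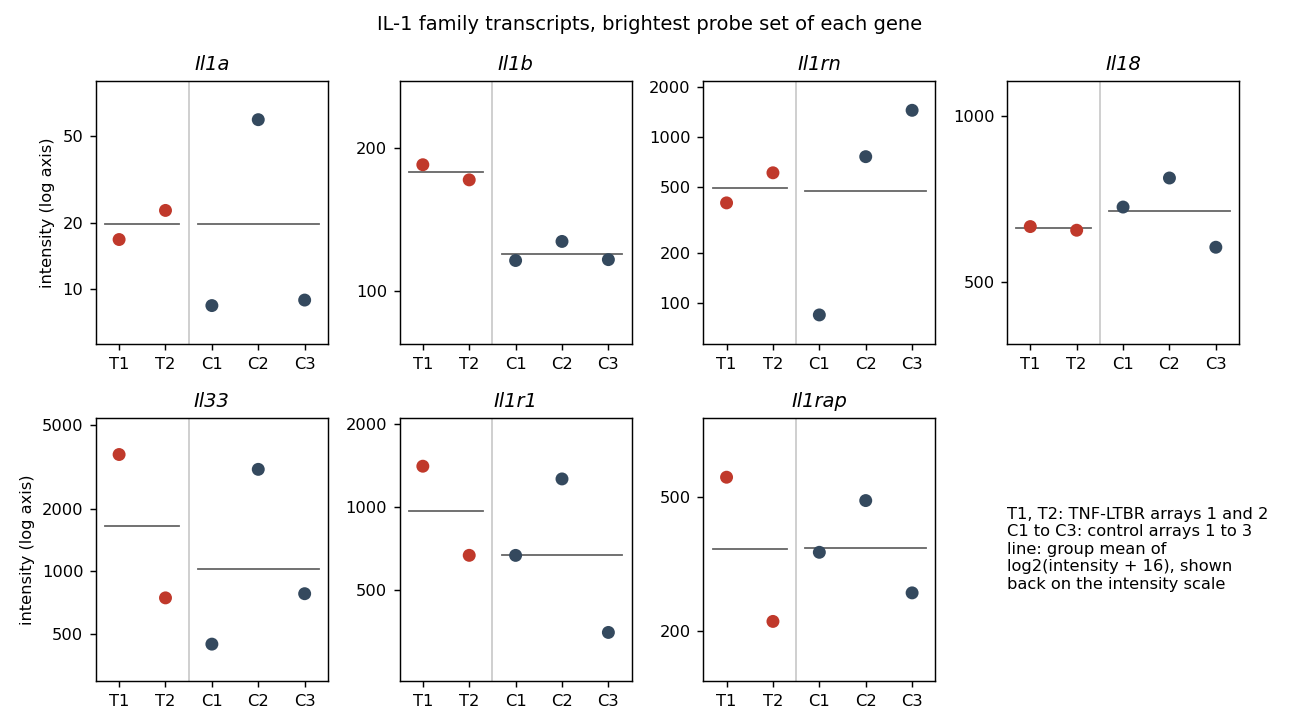
Intensity of each member gene on its brightest probe set (log axis) on TNF-LTBR arrays T1 and T2 and control arrays C1 to C3, with group means of log2(intensity + 16) as lines. Il1b is the panel in which both TNF-LTBR points, at 184 and 171, lie above all controls; Il33 is high on T1 and C2.

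Il1b encodes IL-1 beta, the secreted agonist that caspase-1 matures. Its intensity was 184 and 171 on TNF-LTBR arrays 1 and 2, against 115.7, 126.9 and 116.2 on control arrays 1 to 3. The lowest TNF-LTBR array was thus above the highest control, and the arrays within each group lay close together. The means were 7.60 ± 0.07 in TNF-LTBR (SD, n = 2) and 7.08 ± 0.07 in control cells (SD, n = 3), a difference of 0.51 ± 0.24 (SE) or 1.43-fold. The 95% interval ran from -0.08 to 1.11 and the limma adjusted p was 1. This SE and interval also draw on the spread of other probe sets of similar intensity. They are wider than the Il1b arrays alone would give. An exact two-sided permutation test of 3 against 2 arrays gave 0.1, the smallest p it allows. The same test gave 0.2 or more for every other member probe set. For Il1b this p restates that its groups stood apart and adds no separate support. In the fits that left out 1 array the difference was 0.46 to 0.56. Its sign could not turn there, because the groups did not overlap. Among 11869 genes of mean intensity at least 100, 7.18% had both TNF-LTBR arrays above all controls and 6.14% had both below. Il1b was measured by a single probe set, 1449399_a_at, whose mean of 143 was not far above the array medians of 109.9 to 120.7.

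Il1a encodes IL-1 alpha, the agonist that also acts from the cell surface and from dying cells. Its intensity was 16.8 and 22.8 on the TNF-LTBR arrays, against 8.4, 59.1 and 8.9 on the control arrays. Control array 2 was the highest and the other controls were the lowest, so the groups overlapped. The means were 5.16 ± 0.17 in TNF-LTBR and 5.16 ± 0.93 in control cells, with a 95% interval of the difference from -1.35 to 1.34. At a mean intensity of 23.2 the added 16 weighs on these values, and the difference was 0.53 without control replicate 2.

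Il18 encodes IL-18, an agonist that is made as a stored precursor. It lay at 630.2 and 620.6 on the TNF-LTBR arrays, against 683.8, 772.1 and 578 on the control arrays. The TNF-LTBR arrays fell inside the range of the controls. The difference was -0.10 ± 0.18 (SE), with a 95% interval from -0.55 to 0.34 (limma adjusted p 1). Over the 5 arrays the SD of Il18 was 0.16, and 26.1% of the 11869 genes had a smaller one.

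Il33 encodes IL-33, the nuclear alarmin. Its intensity was 3627.9 and 747 on TNF-LTBR arrays 1 and 2, against 448.6, 3080.5 and 782.2 on control arrays 1 to 3. One array of each title was high and the rest were low, so the groups overlapped throughout. The TNF-LTBR arrays differed 4.86-fold from each other, and the highest control was 6.87-fold above the lowest. The means were 10.70 ± 1.60 in TNF-LTBR (SD, n = 2) and 10.03 ± 1.41 in control cells (SD, n = 3), a difference of 0.67 ± 0.97 (SE, limma adjusted p 1). The 95% interval ran from -1.73 to 3.07. The difference was -0.46 without TNF-LTBR replicate 1, 1.80 without TNF-LTBR replicate 2, 0.08 with control replicate 1 left out and 1.45 with control replicate 2 left out. Its SD over the 5 arrays was 1.33, and 98% of the 11869 genes had a smaller one.

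Il1rn encodes the IL-1 receptor antagonist, the natural inhibitor of the IL-1 receptor. On its brightest probe set, 1451798_at, it lay at 400.8 and 608.1 on the TNF-LTBR arrays, against 84.9, 760.3 and 1444.9 on the control arrays. Both TNF-LTBR arrays sat between the lowest control and the other two controls. The controls spanned 17.0-fold. The other Il1rn probe sets gave 277.9 and 511.5, and 249.5 and 334.5, on the TNF-LTBR arrays. On the control arrays they gave 169.1, 698.7 and 977.6, and 141.8, 445.6 and 779.2. All 3 probe sets ranked the arrays alike, from control array 1 through TNF-LTBR arrays 1 and 2 to control arrays 2 and 3. Their differences were 0.07, -0.37 and -0.34 in the order given, each with a limma adjusted p of 1. On the brightest probe set the difference was -1.06 with control replicate 1 left out and 0.87 with control replicate 3 left out.

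**Figure D2:**
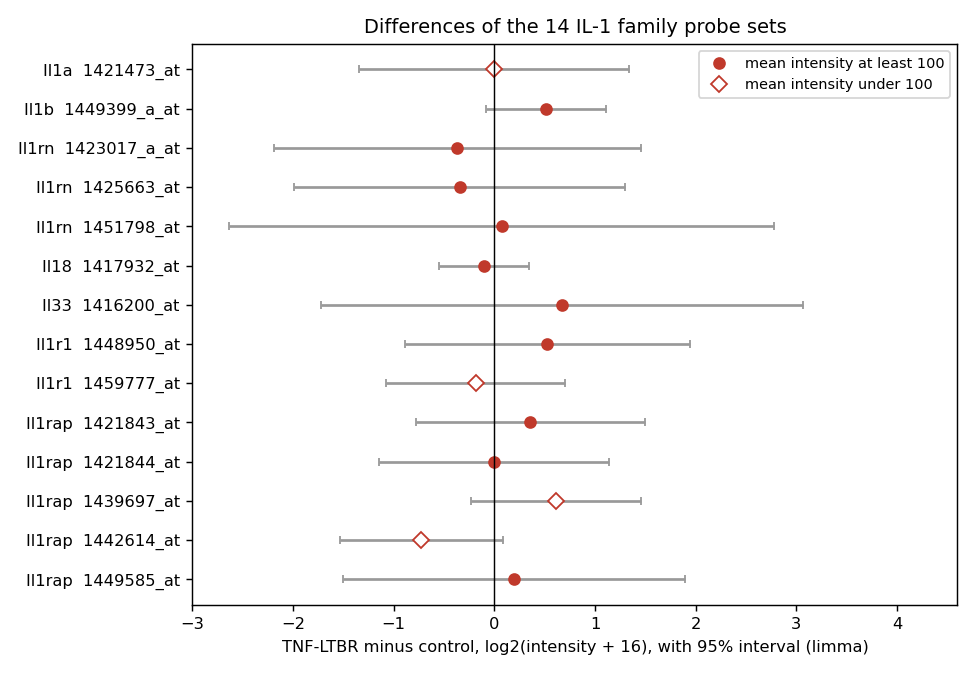
Difference between TNF-LTBR and control cells in log2(intensity + 16) for each of the 14 probe sets, with the 95% interval from limma; open diamonds have a mean intensity under 100. Every interval spans 0, and those of Il18 and Il1b, from -0.55 to 0.34 and from -0.08 to 1.11, are narrower than that of Il33.

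Il1r1 encodes the signalling receptor of both IL-1 agonists. Its probe set 1448950_at read 1402.9 and 665.7 on TNF-LTBR arrays 1 and 2, against 665.4, 1261.3 and 349.3 on control arrays 1 to 3. TNF-LTBR array 1 and control array 2 were highest, and TNF-LTBR array 2 was level with control array 1. The means were 9.94 ± 0.75 in TNF-LTBR and 9.41 ± 0.90 in control cells, a difference of 0.53 ± 0.58 (SE, limma adjusted p 1). It was -0.0017 without TNF-LTBR replicate 1, 1.06 without TNF-LTBR replicate 2, 0.98 with control replicate 2 left out and 0.08 with control replicate 3 left out. The other Il1r1 probe set read 1.8 to 3.7 in TNF-LTBR and 0.6 to 18.2 in control cells, too dim to compare.

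Il1rap encodes the accessory protein that the IL-1 and IL-33 receptors share. Its brightest probe set, 1421844_at, read 571 and 213.7 on the TNF-LTBR arrays, against 342.3, 487 and 259.6 on the control arrays. The TNF-LTBR arrays were the highest and the lowest of the 5, and the group means of 8.52 ± 0.96 in TNF-LTBR and 8.52 ± 0.44 in control cells were level. Probe sets 1421843_at and 1449585_at differed by 0.36 and 0.19, with TNF-LTBR array 1 highest and control array 2 next on both, as on the brightest. The dim probe sets 1439697_at and 1442614_at went opposite ways. The first read 97.6 and 59.3 in TNF-LTBR, against 34.2, 59 and 42.8 in control cells, and the second 9 and 2.6 in TNF-LTBR, against 12, 34.1 and 16.3 in control cells. Neither pair of groups overlapped, the first by a margin of 59.3 in TNF-LTBR against 59 in control cells. The differences were 0.61 and -0.73, and both had a limma adjusted p of 1. The first was 0.32 without TNF-LTBR replicate 1 and 0.37 with a pseudocount of 64, and the second was -0.48 without control replicate 2, -1.73 with a pseudocount of 1 and -0.27 with a pseudocount of 64. Of all 34958 probe sets, 8.73% lay above and 6.6% below all controls in this way.

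**Figure D3:**
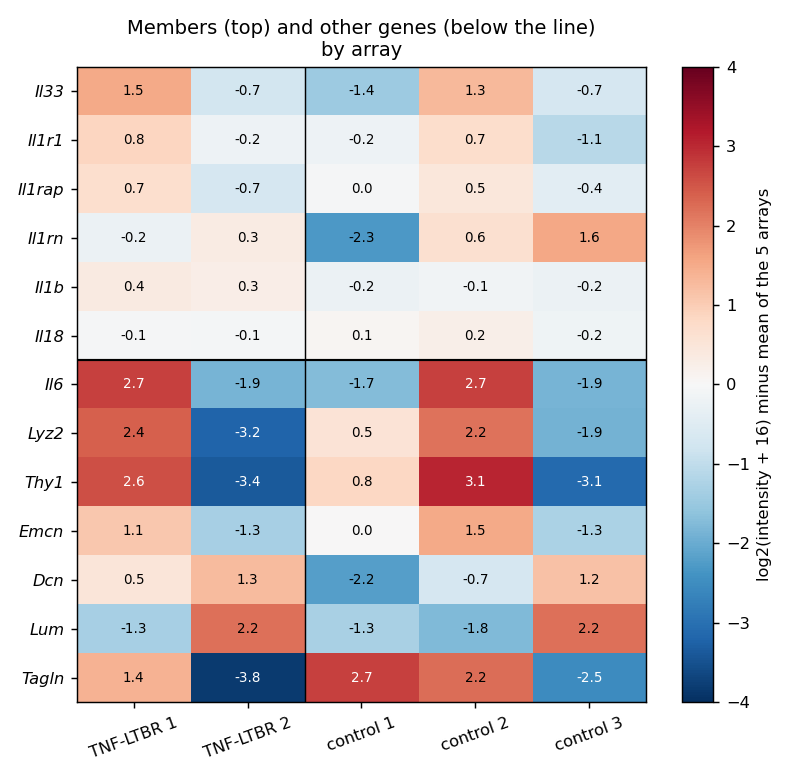
Each cell gives log2(intensity + 16) minus the mean of the 5 arrays, for 6 members above the line and 7 other genes, chosen after their values were seen, below it. Il33, Il1r1 and Il1rap are highest on TNF-LTBR array 1 and control array 2, as are Il6 and Lyz2, while Il1rn is highest on control array 3.

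Il33, Il1r1 and Il1rap thus ranked TNF-LTBR array 1 first and control array 2 second. Il6, the cytokine that IL-1 induces in stromal cells, lay at 1195.7 and 33.7 on the TNF-LTBR arrays, against 39.1, 1184.6 and 33.5 on the control arrays. The same arrays of each title were high for it. Other genes that were high there include Lyz2, a macrophage lysozyme, at 3933.6 and 66.5 in TNF-LTBR, against 1088.5, 3409.2 and 186.3 in control cells. TNF-LTBR array 1 and control array 2 were highest for 8 of 11 macrophage, 3 of 7 lymphocyte and 2 of 12 endothelial markers. They were also highest for 2 of 8 epithelial and mesothelial, 1 of 8 smooth muscle, 1 of 7 fibroblast and 0 of 7 mast cell markers. The share of all genes with these arrays highest was not counted, so these counts have no background. The fibroblast marker among them was Thy1, a surface protein, at 8871.2 and 127.9 in TNF-LTBR, against 2583.1, 12215.1 and 154.6 in control cells. The fibroblast markers Lum and Dcn, both matrix proteoglycans, ran otherwise. Lum read 1103.8 and 12933.2 in TNF-LTBR, against 1145.4, 818 and 12967.3 in control cells, high where Thy1 was low. Dcn read 7815.4 and 13473.9 in TNF-LTBR, against 1204, 3506.4 and 12584.9 in control cells, and was also highest on TNF-LTBR array 2 and control array 3. Il6, Lyz2, Thy1, Lum and Dcn were singled out after their values were seen.

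The summed intensity of 11 macrophage markers was 10156.7 and 3523.8 on TNF-LTBR arrays 1 and 2, against 4783.1, 9174.7 and 3118.8 on control arrays 1 to 3. The macrophage sum was thus also highest on TNF-LTBR array 1 and control array 2. Ptprc, the pan-leukocyte marker CD45, was dim throughout, at 75.2 and 21.8 in TNF-LTBR and 12.3 to 72.5 in control cells. The 12 endothelial markers summed to 1826.8 and 982.6 in TNF-LTBR, against 2065.9, 2181.9 and 997.6 in control cells. The 7 fibroblast markers summed to 54012.5 and 68673.2 in TNF-LTBR, against 36603.4, 54895.8 and 69587.9 in control cells, lowest where Il1rn was lowest. The 8 smooth muscle markers summed to 6805.2 and 4036.2 in TNF-LTBR, against 14633.7, 11969.5 and 4211.1 in control cells. Mast cell markers, of interest because mast cells carry ST2, summed to 351.7 to 457.7 in TNF-LTBR and 294.9 to 482.7 in control cells, and 1 of 7 reached a mean intensity of 100. The 7 lymphocyte markers summed to 562.4 to 767.2 in TNF-LTBR and 587.4 to 775 in control cells. The 8 epithelial and mesothelial markers summed to 1410.3 to 1461.2 in TNF-LTBR and 953.1 to 1633.6 in control cells. The part of these cell types in the members' values was not tested.

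The genes whose array pattern was most like each varying member were taken by the smallest root mean square difference between centred log2 values over the 5 arrays. For Il33 they were Fgf7, a growth factor made by mesenchymal cells, at 0.25, Chst11, a chondroitin sulfotransferase, at 0.29, and Adam23 at 0.31. Fgf7 read 4540.5 and 1182 in TNF-LTBR, against 515.1, 5479.3 and 917.5 in control cells, with the same arrays high as for Il33. For Il1r1 they were Disp1 at 0.09, Insl6 at 0.13 and Wasf1 at 0.14, and for Il1rap Nos3, Tpst2 and Btbd3, at 0.07 to 0.08. For Il1rn they were Gpx3, the secreted glutathione peroxidase, at 0.21, Megf10 at 0.37 and Asic1 at 0.41. Gpx3 read 1805.3 and 3006.5 in TNF-LTBR, against 303.1, 2981.4 and 5655.9 in control cells, lowest on control array 1 and highest on control array 3 like Il1rn. Il1b and Il18, with an SD over the arrays below 0.5, and the dim Il1a were not searched. The search ran over 11869 genes with only 5 values each, so close matches can arise from its size alone. How close the nearest genes come for other genes was not computed.

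**Figure D4:**
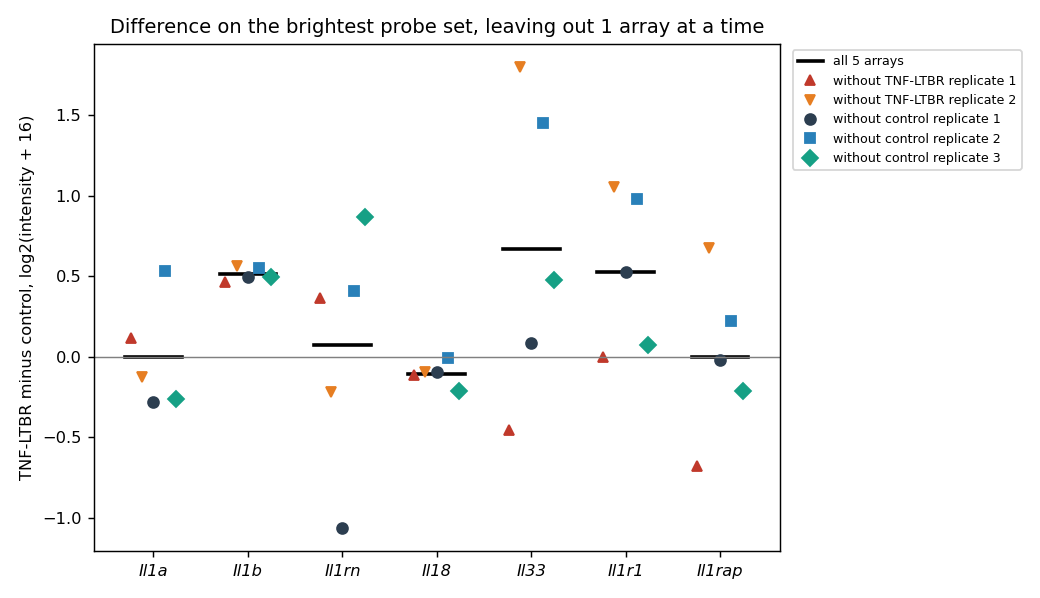
Difference between TNF-LTBR and control cells on the brightest probe set of each gene, with all 5 arrays (bar) and without each array in turn (symbols). Il1b stays between 0.46 and 0.56, Il33 spans -0.46 to 1.80 and Il1rn -1.06 to 0.87. The sign of Il1b could not turn, because its groups did not overlap.

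Of 73 measured genes in 5 lists of the wider pathway, 0 passed limma. Of the 73, 10 (13.7%) had both TNF-LTBR arrays above every control, beside 8.6% of all genes, and 1 (1.37%) had both below, beside 6.38%. Many IL-1 targets are also TNF targets, so these lists are not specific to IL-1.

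Among 6 other ligand and binding-protein genes, 1 had both TNF-LTBR arrays above all controls and the median difference was -0.02. This was Il18bp, which encodes the soluble protein that neutralises IL-18. It lay at 166.5 and 312 on the TNF-LTBR arrays, against 157.6, 23.5 and 99.7 on the control arrays, 2.64-fold (difference 1.40 ± 0.68 SE, limma adjusted p 1). TNF-LTBR array 1 exceeded control array 1 by little, and TNF-LTBR array 2 was clearly highest. Of 7 other receptor genes, 5 had a mean intensity under 100, among them the decoy receptor Il1r2, named after its values were seen, at 97.1 and 44.7 in TNF-LTBR, against 46.6, 91.6 and 7.7 in control cells. Il18r1, the IL-18 receptor chain and also named after its values were seen, read 12.5 and 8.2 in TNF-LTBR, against 4.8, 6.3 and 7 in control cells, above all controls but very dim. The median over the receptor list was 0.25, and 0.01 over its 2 genes of mean intensity at least 100.

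Among 11 genes of IL-1 maturation, 2 lay above all controls and the median was 0.03. Casp8, which can cleave the IL-1 beta precursor beside its role in death receptor signalling, read 1882.4 and 2202 in TNF-LTBR, against 1454.7, 1323.8 and 1394.8 in control cells. The second was S100a13, a carrier in IL-1 alpha release, named after its values were seen, with a difference of 0.11. Casp1, the main IL-1 beta convertase and likewise named afterwards, was dim, at 135.2 and 4.1 in TNF-LTBR, against 50.4, 123.3 and 1.4 in control cells, and was again highest on TNF-LTBR array 1 and control array 2.

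Among 23 genes of receptor signalling the median was -0.05, with 2 above and 1 below all controls. Map2k6, a kinase that activates p38, read 211.1 and 588.7 in TNF-LTBR, against 119.5, 126.3 and 173.6 in control cells, a difference of 1.27 ± 0.45 (SE, limma adjusted p 1). Its groups did not overlap, and TNF-LTBR array 2 was far above the other arrays. Traf6, the ubiquitin ligase below MyD88, differed by 0.29. The 1 below was Irak2, a kinase of the IL-1 receptor complex, at 498.9 and 523.8 in TNF-LTBR, against 729.2, 693.8 and 673.4 in control cells (difference -0.44 ± 0.15 SE, limma adjusted p 1). Traf6, Irak2 and Myd88 were named after their values were seen. The adaptor Myd88 overlapped, at 962.8 and 1159.3 in TNF-LTBR, against 1031.6, 1303.6 and 1246.8 in control cells.

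Among 26 IL-1 inducible targets, 19 were higher and 7 lower on average, with a median of 0.53, and 4 lay above all controls. The median over all genes was 0.01, and the share of all genes that were higher was not counted. The list was not refitted with single arrays left out, so how far its median rests on 1 array was not tested. Ccl2, the monocyte chemokine, read 14768.5 and 9852.8 in TNF-LTBR, against 886.6, 3997.3 and 437.8 in control cells. Nfkbia, the NF-kB inhibitor, read 14671.3 and 17861.9 in TNF-LTBR, against 10474.5, 5885.4 and 12049 in control cells. Lif, a cytokine of the IL-6 family, read 451.7 and 188.7 in TNF-LTBR, against 163.1, 185.1 and 69.9 in control cells, so that TNF-LTBR array 2 barely exceeded control array 2. Vcam1, an adhesion molecule named after its values were seen, was the fourth, at a difference of 0.27. TNF-LTBR array 1 and control array 2 were highest for 1 of 6 other ligand and binding-protein genes and 3 of 7 other receptor genes. They were also highest for 5 of 11 maturation and 2 of 23 signalling genes. The share of all genes with these arrays highest was not counted. For 15 of the 26 targets the same arrays were the highest. Of these Ptgs2, the inducible cyclooxygenase, named after its values were seen, read 1116.7 and 198.2 in TNF-LTBR, against 334.5, 1456.2 and 295.2 in control cells. Tnfaip3, which encodes the NF-kB feedback inhibitor A20 and was likewise named after its values were seen, was not among them, at 1404.3 and 4564.7 in TNF-LTBR, against 872.7, 744.4 and 1855.9 in control cells.

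**Figure D5:**
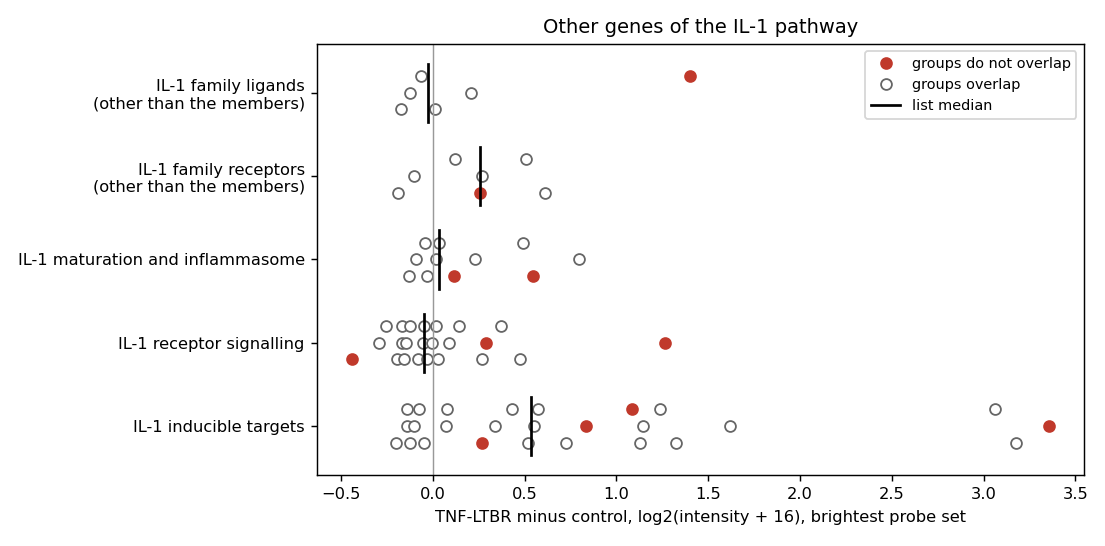
Difference between TNF-LTBR and control cells for each measured gene of 5 lists (brightest probe set); filled points are genes whose groups do not overlap and bars are list medians. The target list has its median at 0.53, and the other medians lie between -0.05 and 0.25.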

How the data were processed

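The authors deposited 1 linear array intensity per probe set and array for 5 one-colour arrays, and the submitters' processing notes name GCOS 1.4. How probes were summarised and scaled is not stated there. Per the deposited values, the mean intensity was 500 on every array once the extreme 2% of probe sets at either end was left out, so values were used as deposited. The number of arrays limits the precision, and no detection calls were used.

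Gene symbols came from the platform annotation: of 45101 probe sets, 34958 had 1 symbol, 932 several and 9211 none listed. An Entrez match of 34754 probe sets to RefSeq (GRCm38.p6) changed 0 symbols. Groups and replicate numbers came from titles. The log2 of intensity plus 16 was fitted with limma 3.58.1 under R 4.3.3 (lmFit, then eBayes with trend, two-sided tests, 3 residual degrees of freedom), with Benjamini-Hochberg adjustment over all 34958 probe sets and no brightness filter. Folds on this scale understate changes of dim genes. A fit of 1 probe set a gene on the brightest 60% (10916 genes) called 0 genes (smallest adjusted p 0.999, 192 genes at an unadjusted p under 0.05). A gene's brightest probe set is that of the highest mean over all arrays.

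The members and lists were chosen with earlier results of these data known. Named beside the members were, per list, up to 4 genes of mean intensity at least 100 whose groups did not overlap and differed by at least 0.5, and the 3 genes most like each member with an SD over the arrays of at least 0.5. Markers of a mean intensity under 100 could also be named. Genes outside this rule are marked in the text as chosen after their values were seen. Of 83 listed pathway entries, some of them older and newer symbols of 1 gene, 73 had a probe set of their own. The fit was tested on simulated data with independent normal noise of the same SD for every probe set. Such data lack the likeness between arrays of different titles seen here, so that test does not cover it. Alternatives were pseudocounts 1 and 64, a brightness filter, quantile normalization, median centring, no trend, array weights and the replicate block. Others left out each array, or all probe sets with the suffixes _x_at, _s_at, _a_at and _f_at.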

Additional observations from a re-analysis of the deposited data

How the results depend on the processing

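No member passed limma under any of the 15 alternatives, with adjusted p-values of 0.871 to 1, and 0 probe sets passed in each fit that used probe sets. Unadjusted limma p-values under 0.05 arose for Il1b with no trend (0.030) and on the 60% brightest probe sets (0.046). They also arose for each Il1rn probe set without control replicate 1 (0.033 to 0.047), where Il1rn was lower. Of 196 member values under an alternative, 174 kept their direction and 22 turned it. Il1b stayed higher, at 0.40 to 0.57, under the 14 alternatives that could measure it, and Il18 stayed lower, at -0.21 to -0.01. As both TNF-LTBR arrays of Il1b lay above every control, leaving out an array or changing the pseudocount could not turn its direction. Where probe sets were left out by suffix, Il1b dropped out because its only probe set ends in _a_at, so that 0 genes lay above all controls. The suffix alone does not say that this probe set also reads other genes.

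With pseudocount 1 Il1a was at 0.21. With pseudocount 64 Il1rn (1451798_at) was at -0.0283 and Il1rap (1421844_at) at 0.0105, and Il1rap was at 0.0049 with quantile normalization. Same-numbered arrays did not deviate together (correlations of 0.13 for replicate 1 and -0.776 for replicate 2 over genes), so the numbers are not taken to pair the arrays. With 2 TNF-LTBR arrays, their deviations from the group mean mirror each other, so these correlations are not separate checks. With the replicate number as a block, which takes control array 3 out of the comparison, 1 gene lay above and 1 below all controls, and Il1rn (1423017_a_at and 1425663_at) was at 0.11 and 0.18 and Il1rap (1449585_at) at -0.0603. The share of all genes above or below was not computed for the block, whose counts used fewer arrays. The block called 0 probe sets.

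Leaving out each array in turn gave 1 to 4 genes above all controls, 0 to 1 below, and a median over the genes of -0.02 to 0.56. The 4 came without TNF-LTBR replicate 2, and 3 came without control replicate 2. With fewer arrays, groups stand apart more readily. The share of all genes was not computed for these settings, so these counts have no background. The differences ranged from -0.28 to 0.53 for Il1a, -0.46 to 1.80 for Il33, -1.10 to 0.11, -0.99 to 0.18 and -1.06 to 0.87 for the Il1rn probe sets 1423017_a_at, 1425663_at and 1451798_at, -0.0017 to 1.06 and -0.36 to 0.16 for the Il1r1 probe sets 1448950_at and 1459777_at, and -0.27 to 0.99, -0.68 to 0.68 and -0.85 to 1.24 for the Il1rap probe sets 1421843_at, 1421844_at and 1449585_at. The dim Il1rap probe sets 1439697_at and 1442614_at lay at 0.32 to 0.91 and -0.94 to -0.48. Their direction could not turn, because their groups did not overlap. Signal limits Il1a and the dim probe sets of Il1r1 and Il1rap, where the added 16 is of the order of the intensity.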
